A study of Mus musculus with 12 samples.

Results

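The cytochrome P450 families Cyp2, Cyp3 and Cyp4, the UDP-glucuronosyltransferases and glutathione transferases were examined as 1 group in the mouse colon. These genes process drugs and toxins, and the glutathione transferases were those of the alpha, mu, pi, theta, kappa and omega classes. The members were chosen by symbol and by measured level: a gene was taken when its symbol in the array annotation belonged to one of these families and the mean of its brightest probe over all arrays was above 4.67 on the log2 scale. Of 19505 named genes, 106 had such a symbol (78 Cyp, 8 Ugt2 and 20 Gst genes), and 50 of them were above the minimum: 29 Cyp, 4 Ugt2 and 17 Gst genes. The other 56 lay at or under it. Genes of the Ugt1 family were not analysed here. The minimum used only the mean level, so that level is a description and was not tested. At the edge, Ugt2b5 (4.68), Cyp3a11 (4.79) and Gstt1 (4.87) were just inside, and Cyp2w1 (4.61), Cyp2ab1 (4.54) and Cyp2r1 (4.52) just outside. The mean of 45 of the 50 genes was above the minimum in all 4 genotypes, and 41 were above it on every array. The other 5 genes, Cyp2c68, Cyp3a11, Cyp4a14, Gstt1 and Ugt2b5, were above it in 2 or 3 genotypes, so part of their place in the group rests on the genotypes where they were higher.

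Expression had been measured by Affymetrix array in total RNA of whole colonic tissue from healthy male mice aged 12 to 16 weeks. There were 4 genotypes with 3 arrays each: wild type, LAO1 knockout, IL4i1 knockout and DKO, the double knockout of LAO1 and IL4i1. LAO1 and IL4i1 are L-amino acid oxidases, which deaminate amino acids and give off hydrogen peroxide, and the study asked how the loss of both leads to colonic inflammation. No treatment or further allele is named in the labels, and the strain and the make of the knockouts are not given in the sources used here. Per the labels, 4 mice were picked for every genotype, and nothing states whether each array held RNA of 1 mouse, so a p-value here measures the spread between arrays, which may be technical in part.

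Enzymes of these families dispose of foreign and internal lipophilic compounds in steps. Cytochromes P450 oxidise a substrate, and many Cyp2 and Cyp4 enzymes also act on fatty acids such as arachidonic acid. Glucuronosyltransferases and glutathione transferases then attach a polar group that lets the product leave the cell. Liver and gut epithelium are the best known sites, and the colon epithelium meets compounds from food and from microbes.

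Arrays were close in overall scale, with medians between 5.42 and 5.49, and values of the table ran from 1.72 to 19.93. For arrays the number of arrays, not a read depth, limits the precision. The Lao1 probe read between 2.64 and 3.56 on every array, also in wild type, and was no lower where LAO1 was knocked out (3.01 ± 0.29, SD, n = 3), and Il4i1 was not analysed here, so the targeted genes gave no check of the labels. All 6 colon epithelium markers were above the minimum level, with a summed signal of 19.41 to 19.95 (log2) over the 12 arrays. Of 8 hepatocyte markers 6 were above it, but their summed signal was only 8.03 to 9.95: 8.36 to 9.01 for wild type, 8.87 to 9.91 for the LAO1 knockout, 8.66 to 9.86 for the IL4i1 knockout and 8.03 to 9.95 for the double knockout. Replicate 2 of the IL4i1 knockout was far from the rest on principal component 1 (68.94, other arrays -40.03 to 20.75). Double knockout replicate 1 was far from the rest on component 2 (-61.67, others -29.93 to 25.68) and double knockout replicate 2 on component 3 (56.85, others -31.72 to 17.65). Double knockout replicate 1 also held the lowest values of Cyp2d34, Cyp2d9 and Gstm1 described here. Double knockout replicate 2 held a pancreatic acinar signal of 20.56, against at most 7.82 on the other 11 arrays. The interferon response list, 7 of 8 genes measured, summed to 13.29 to 16.00 in the double knockout. It summed to 11.46 to 12.84 for wild type, 10.96 to 11.98 for the LAO1 knockout and 10.70 to 11.14 for the IL4i1 knockout. Its part in the values that follow was not tested.

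The promoters of the colon Cyp2c genes are shown first, because Cyp2c55, Cyp2c65 and Cyp2c66 varied together among the arrays of each genotype. They are the 250 bases before each gene's start, from RefSeq on build GRCm38.p6, plus strand, 5′ to 3′. Capitals mark the TATA box letters TATAAA and the letters CAAAGTCCA, a form of the site of HNF4, a nuclear receptor of gut and liver epithelium. Cyp2c55 lies at chr19:39006769-39007018, Cyp2c65 at chr19:39060756-39061005 and Cyp2c66 at chr19:39113648-39113897.
Cyp2c55: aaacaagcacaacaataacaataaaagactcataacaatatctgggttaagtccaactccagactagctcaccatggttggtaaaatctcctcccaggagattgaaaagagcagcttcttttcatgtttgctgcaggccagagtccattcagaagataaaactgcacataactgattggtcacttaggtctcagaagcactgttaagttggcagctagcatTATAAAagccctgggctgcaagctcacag
Cyp2c65: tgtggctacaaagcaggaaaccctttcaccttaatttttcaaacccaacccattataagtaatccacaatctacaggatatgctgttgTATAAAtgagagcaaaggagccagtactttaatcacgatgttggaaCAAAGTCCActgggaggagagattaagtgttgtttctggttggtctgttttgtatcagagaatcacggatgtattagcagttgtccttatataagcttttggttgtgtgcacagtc
Cyp2c66: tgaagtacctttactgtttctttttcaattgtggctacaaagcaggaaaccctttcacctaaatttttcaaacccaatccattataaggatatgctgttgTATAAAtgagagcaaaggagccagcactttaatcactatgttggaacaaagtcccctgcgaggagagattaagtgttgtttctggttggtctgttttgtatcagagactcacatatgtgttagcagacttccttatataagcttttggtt

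The Cyp2c65 and Cyp2c66 windows were near copies, identical at 208 of 221 aligned bases (94.1%) with a shared run of 48 bases. Cyp2c55 was identical to Cyp2c65 at 145 of 222 aligned bases (65.3%), and their longest shared run was 8 bases. TATAAA began 29 bases before the start in Cyp2c55, and 162 and 150 bases before it in Cyp2c65 and Cyp2c66. CAAAGTCCA began 116 bases before the start of Cyp2c65 and was not in the other windows shown. Of the 50 genes, 41 had at least 1 promoter window in the RefSeq table, 51 windows in all. TATAAA, searched on both strands, was in 12 of these 51 windows (23.5%) and in 12.4% of all 32851 windows of the same length. CAAAGTCCA was in 3 of them (5.88%, in Cyp2c65, Cyp2c68 and Cyp3a11) against 0.384% of all windows. Shares for 3 further motifs were lower in the group than in all windows: AGGTCA, the half-site of nuclear receptors, 11.8% against 14.0%; GCGTG, the core bound by the aryl hydrocarbon receptor, 17.6% against 28.2%; TGACNNNGC, the core of the antioxidant response element, 9.80% against 10.2%. A match is a match of letters only. These windows are not independent, since 41 of the 48 members listed as protein-coding genes stand next to another gene of these families.

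Gene order was taken from RefSeq protein-coding genes, with all other loci left out. Cyp2c55, Cyp2c65, Cyp2c66 and Cyp2c68 were the 4 members in a run of 14 Cyp2c genes, and all 7 genes of the Gstm run were members. Cyp2d12, Cyp2d34, Cyp2d40 and Cyp2d26 stood side by side in that order. Some runs join several subfamilies, and genes of the same subfamily are related. Probes of Cyp2c, Cyp2d, Gstm and Gstp genes may read more than 1 of them, which was not tested, so each single value in these clusters is uncertain. Cyp2d37-ps is listed as a pseudogene and was kept because its symbol matched. Cyp2d13 was also kept by its symbol and was not found under it among the RefSeq protein-coding genes.

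The colonic means of the members ran from 4.68 to 14.95. Their median was 7.31, against 5.46 for all probes, and 10 genes had a mean above 10. Only 59.9% of all probes were above the minimum that every member had to pass, so the higher median follows in part from the rule. Cyp2c55, a P450 of the large bowel that hydroxylates arachidonic acid, was brightest with a mean of 14.95 over 12 arrays. It was followed by Ugt2b34, a glucuronosyltransferase (13.37), Gstm1, a mu class glutathione transferase (13.27), and Gsto1, the omega class enzyme with thioltransferase activity (12.16). Probes differ in response, so this order describes signal and not amounts of RNA. In the Cyp3 family Cyp3a13, a form found in the gut, read 9.18 and Cyp3a11, abundant in liver, read 4.79. The brightest Cyp4 genes were Cyp4f14, a leukotriene hydroxylase (10.89), Cyp4f16 (9.12) and Cyp4f13 (7.67). The alpha class genes Gsta2, Gsta4 and Gsta3 read 6.97, 6.66 and 5.95. The pi class pair Gstp2 and Gstp1 read 10.37 and 10.22, Gstt2 of the theta class 8.25 and Gstk1, the kappa class enzyme of mitochondria and peroxisomes, 6.57.

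The first question was whether any genotype set these genes apart. By limma, in 1 fit over 12 arrays, 0 of 50 genes passed an adjusted p of 0.05 in the F test over the 4 genotypes, where 0.207% of all 22206 probes passed. At an unadjusted p under 0.05 there were 6 (12%), Cyp2d34, Gsta4, Gstk1, Cyp2d9, Gstm1 and Cyp2s1, against 7.48% of all probes. Brighter probes had more such p-values: the share was 10.2% over the 13308 probes above the minimum level, the closer background for these members. The smallest adjusted p of a member was 0.215 for Cyp2d34. The values that follow are therefore differences that did not pass the test, given with their spread.

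In the double knockout most of the group lay lower than in wild type, but no gene passed. Of the 50 differences, 36 (72%) were below 0. The median of the 50 was -0.35, against 0.00 for all probes and -0.02 for the 13308 probes above the minimum level. Of the 36, Cyp2c68, Cyp4a14, Gstt1 and Ugt2b5 had double knockout means under the minimum level. Their place in that count rests in part on the genotypes where they were higher. Cyp3a11, with a difference above 0, had a wild type mean under that level. The mean over the 50 genes was 7.84, 7.86 and 7.91 on the wild type arrays and 7.41, 7.63 and 7.43 on the double knockout arrays, so these 2 genotypes did not overlap. LAO1 knockout arrays gave 7.59, 8.16 and 7.90 and IL4i1 knockout arrays 8.08, 7.91 and 7.71, and LAO1 knockout replicate 1 lay below double knockout replicate 2. In RNA of whole tissue, fewer cells of a type and less RNA per cell cannot be told apart. Without a minimum level, over all 106 genes, the median difference from wild type was -0.06. Without double knockout replicate 1 the median over the 50 was -0.22.

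By limma 0 of 50 genes passed in this comparison, where 0.0225% of all probes did, and 7 (14%) had an unadjusted p under 0.05, all of them lower, against 7.44% of all probes, 3.63% higher and 3.81% lower. Over probes above the minimum level 9.66% had one, 5.34% lower. All 3 double knockout arrays lay below all 3 wild type arrays for 11 genes (5.95% of all probes, 7.36% of those above the minimum level), and above them for 0 (5.68% of all probes). The 11 were Cyp2c55, Cyp2d13, Cyp2d34, Cyp2d9, Cyp2s1, Cyp3a13, Cyp4f14, Gstk1, Gstm1, Gstm2 and Gstm6.

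**Figure D1:**
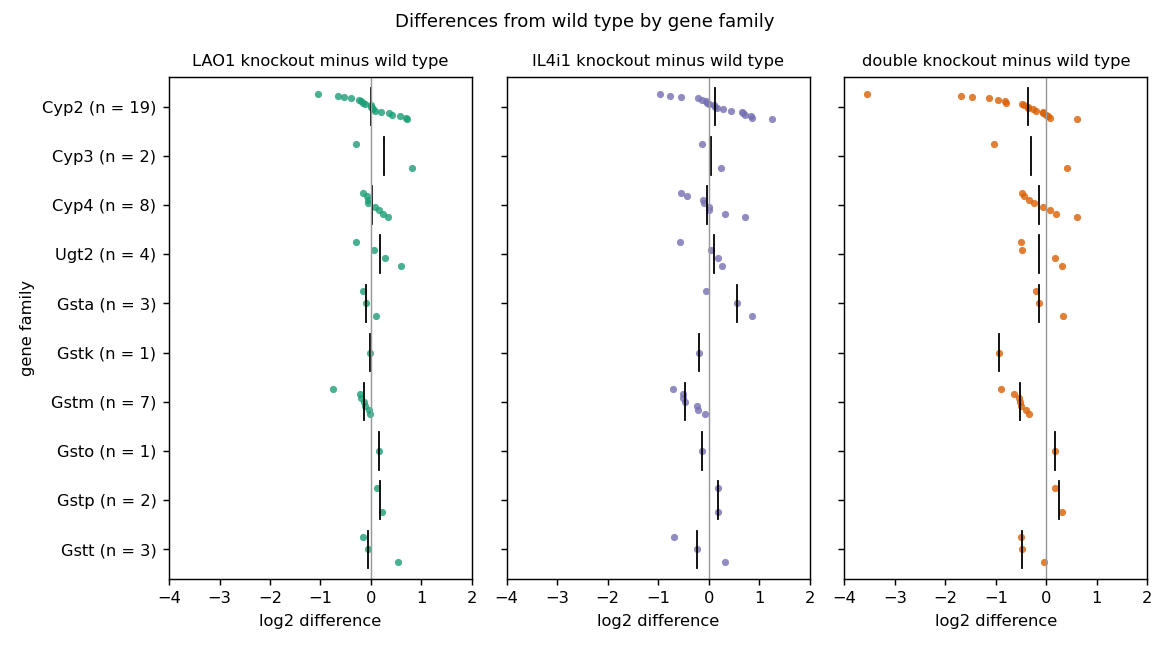
Log2 difference from wild type (horizontal axis) in the LAO1 knockout, the IL4i1 knockout and the double knockout, 1 row per gene family. Each point is 1 gene and the black line the family median; in the double knockout all 7 Gstm genes and 15 of 19 Cyp2 genes lie below 0, and the 3 panels share the wild type arrays.

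Among the Cyp2 genes 15 of 19 differences between double knockout and wild type were below 0, with a median of -0.37. Cyp2s1, a P450 of surface epithelia, read 12.12, 12.24 and 11.74 on the wild type arrays and 10.72, 10.98 and 9.96 on those of the double knockout. All 3 double knockout arrays were lower, by -1.48 ± 0.48 (SE) on average (adjusted p = 0.515). LAO1 knockout replicate 1 (9.89) and IL4i1 knockout replicate 3 (10.38) were as low as the double knockout, so Cyp2s1 was not low in that genotype alone. Cyp2d9 read 7.93, 7.62 and 7.23 on the wild type arrays, 7.54, 7.41 and 8.06 on those of the LAO1 knockout, 7.63, 7.28 and 8.38 on those of the IL4i1 knockout and 6.60, 6.92 and 6.85 on those of the double knockout. Every double knockout array lay below all 9 others. The difference from wild type was -0.80 ± 0.29 (SE, adjusted p = 0.577).

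Cyp2d34, of the P450 subfamily that oxidises many amine drugs in humans, had the smallest p of the group in 3 comparisons and the F test: against each single knockout, and for the interaction. Its values were 12.17, 11.41 and 10.98 on the wild type arrays and 12.17, 12.11 and 12.41 on those of the LAO1 knockout. IL4i1 knockout arrays read 11.47, 13.34 and 13.53, and double knockout arrays 8.42, 10.85 and 10.25. The double knockout was lowest on all 3 arrays, and the single knockouts were at or above the level of wild type on average. The differences of the double knockout were -1.68 ± 0.60 (SE) from wild type (adjusted p = 0.575), -2.39 ± 0.60 from the LAO1 knockout (0.248) and -2.94 ± 0.60 from the IL4i1 knockout (0.0523). The last of these lay next to the threshold and passed it in a minority of the settings. It passed without IL4i1 knockout replicate 1 (-3.60, adjusted p = 0.0143) or double knockout replicate 2 (-3.45, 0.0216), and with probes under the 40th percentile left out (0.0447). It also passed with a replicate block (0.0424). Of 2 covariates described below and added after the data had been seen, it passed with Car1 (0.0208) and not with Hoxb13 (0.0644). It did not pass with quantile normalization (0.0564), with the trend and robust options of eBayes (0.0791) or with only the 6 arrays compared (0.325). Nor did it pass without double knockout replicate 1 (-2.23, 0.190), the array with the lowest value, or in most other fits with 1 array left out. The interaction, which asks whether the double knockout departs from the sum of both single losses, was -3.65 ± 0.84 (adjusted p = 0.172). Of the settings run, it passed only without IL4i1 knockout replicate 1 (-4.31, 0.0385).

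Among glutathione transferases 13 of 17 differences between double knockout and wild type were below 0. Gstk1 had the smallest p of the group in that comparison. It read 6.48, 7.17 and 6.92 on the wild type arrays, 6.39, 7.29 and 6.81 on those of the LAO1 knockout, 6.78, 6.91 and 6.30 on those of the IL4i1 knockout and 5.98, 5.96 and 5.82 on those of the double knockout. All 3 double knockout arrays lay within 0.16 of each other and below the other 9. The difference from wild type was -0.94 ± 0.26 (SE), a level 0.522 times that of wild type (adjusted p = 0.411). Gstm1 read 13.33, 13.59 and 13.72 on the wild type arrays and 12.19, 13.12 and 12.65 on those of the double knockout. IL4i1 knockout replicate 2 was also low, at 12.68. Its difference from wild type in the double knockout was -0.89 ± 0.30 (adjusted p = 0.538).

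**Figure D2:**
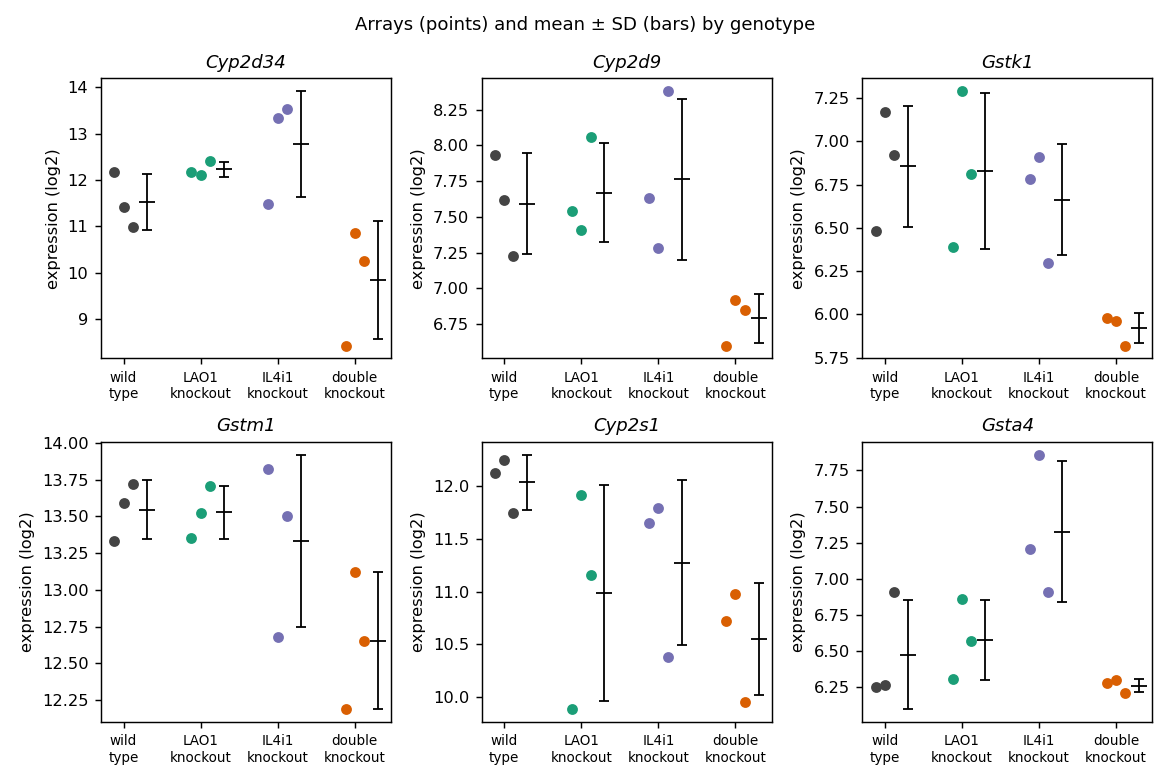
Log2 expression (vertical axis, its range set for each gene) of 6 genes in the 4 genotypes. Points are arrays and bars the mean ± SD of 3 arrays; in Cyp2d34, Cyp2d9 and Gstk1 all 3 double knockout arrays lie below the other 9, and in Gsta4 the double knockout reads 6.21 to 6.30.

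The 7 mu class genes, which conjugate glutathione to electrophiles, lay below wild type in each knockout genotype, with median differences of -0.52 for the double, -0.14 for the LAO1 and -0.47 for the IL4i1 knockout. These 3 comparisons share the wild type arrays, and neighbouring Gstm probes may read each other's RNA. The mean over the 7 genes was 8.22, 8.32 and 8.35 on the wild type arrays, 7.84, 8.19 and 8.22 on those of the LAO1 knockout, 8.21, 7.58 and 7.93 on those of the IL4i1 knockout and 7.52, 7.85 and 7.87 on those of the double knockout. Wild type lay highest on average, and only LAO1 knockout replicate 3 reached its lowest array. Of the 7, Gstm1 and Gstm7 had an unadjusted p under 0.05 in the double knockout. Gstm7 read 5.44, 6.20 and 6.23 in wild type and 4.86, 5.61 and 5.47 there, a difference of -0.64 ± 0.27 (adjusted p = 0.631). Their ranges overlapped. Gstm6 read 6.28, 5.79 and 5.54 on the wild type arrays, 5.14, 5.61 and 4.60 on those of the LAO1 knockout and 5.64, 4.79 and 5.06 on those of the IL4i1 knockout. It is a dim probe, and its differences of -0.75 ± 0.30 and -0.71 ± 0.30 had adjusted p-values of 1 and 0.625.

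In the remaining families no gene had an unadjusted p under 0.05 in the double knockout against wild type. All 3 theta class genes lay below 0, with a median of -0.49, near that of the mu class, and Gstt1 differed by -0.50 ± 0.24 (adjusted p = 0.683). The double knockout mean of Gstt1 (4.60) was under the minimum level, so its place in that count rests in part on the other genotypes. Both pi class genes had differences above 0 between double knockout and wild type, Gstp2 by 0.31 ± 0.31 (SE) and Gstp1 by 0.17 ± 0.36. Gsto1 differed by 0.17 ± 0.29, with a 95% interval reaching 0.62 to either side of that value. The 4 Ugt2 genes split evenly, and Ugt2b34 differed by -0.50 ± 0.32 (adjusted p = 0.776). Of the 8 Cyp4 genes, 5 lay below 0 with a median of -0.15, and Cyp4f14 differed by -0.45 ± 0.54. Cyp3a13 differed by -1.04 ± 0.55 (adjusted p = 0.729). Intervals of this width do not show that these genes were alike in both genotypes.

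Against each single knockout, the double knockout was again mostly lower, with the same double knockout arrays in both comparisons. Against the LAO1 knockout, 38 of 50 differences were below 0, with a median of -0.33 (all probes -0.01). By limma 0 passed (0.14% of all probes), and 7 had an unadjusted p under 0.05 (7.15% of all probes, 3.51% higher and 3.64% lower), 6 lower and 1, Ugt2b36, higher. Over probes above the minimum level the share was 8.93%. All 3 double knockout arrays lay below all 3 LAO1 knockout arrays for 14 genes (6.46% of all probes, 7.81% of those above the minimum level) and above them for 0 (6.25%). Among the 14 was Cyp3a11, which is in the group through its LAO1 knockout values, so its place there supports nothing. Among the 38, the same holds for Cyp3a11 and for Ugt2b5, a member through LAO1 knockout replicate 2 (6.93). Cyp2c68, Cyp4a14 and Gstt1 of the 38, the last also of the 14, had double knockout means under the minimum level. Their place in these counts rests in part on the genotypes where they were higher. Cyp2d34 and Gstk1 (-0.91 ± 0.26, adjusted p = 0.409) led, before Cyp2d9 (-0.88 ± 0.29, 0.518) and Gstm1 (-0.87 ± 0.30, 0.532). Cyp4f13 of the fatty acid hydroxylases differed by -0.55 ± 0.24 (0.666) and Gstt2 by -0.58 ± 0.27 (0.698). Ugt2b36 read 4.59, 4.72 and 5.19 in the LAO1 knockout and 5.15, 5.59 and 5.60 in the double knockout, near the minimum level (0.61 ± 0.28, adjusted p = 0.696).

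Against the IL4i1 knockout, 35 of 50 differences were below 0, with a median of -0.27 (all probes -0.02). By limma 0 passed (0.477% of all probes), and 9 (18%) had an unadjusted p under 0.05, all lower (9.83% of all probes, 5.17% higher and 4.66% lower). Over probes above the minimum level the share was 13.0%, with 5.44% lower. Of these 9, 5 were Cyp2d genes, and all 9 Cyp2d members lay below 0 here, with a median of -0.77. Against wild type, 8 of the 9 lay above 0 in the IL4i1 knockout (median 0.45). In the double knockout 7 of 9 lay below 0 (median -0.44). On average the gap held both a higher IL4i1 knockout level and a lower double knockout level, and single arrays weighed on both. Probes of these related genes may read more than 1 of them, so 9 separate measurements cannot be assumed. Next to Cyp2d34 and Cyp2d9 (-0.97 ± 0.29, adjusted p = 0.234) they were Cyp2d22 (-0.71 ± 0.23, 0.278), Cyp2d13 (-0.77 ± 0.28, 0.373) and Cyp2d12 (-1.79 ± 0.72, 0.433). Cyp2d12 was far higher on IL4i1 knockout replicate 3 (9.57) than on the other arrays of that genotype (6.71 and 5.81). Cyp2d9 (7.63, 7.28 and 8.38), Cyp2d13 (9.63, 9.17 and 10.28) and Cyp2d10 (8.75, 8.74 and 9.98) were also highest on that array. So were Cyp2d34 and Cyp2d37-ps, while Cyp2d22 and Cyp2d26 were lowest on it. Within the double knockout all Cyp2d members but Cyp2d26 were lowest on replicate 1. Cyp2c68 (-1.08 ± 0.46, 0.459), Gstk1 (-0.74 ± 0.26, 0.337) and Gstm1 (-0.68 ± 0.30, 0.480) completed the 9 with Gsta4. Cyp2c68, like Cyp4a14, Gstt1 and Ugt2b5 among the 35, had a double knockout mean under the minimum level. The place of these genes in the counts rests in part on the genotypes where they were higher. All 3 arrays lay below for 6 genes (6.62% of all probes, 6.56% of those above the minimum level) and above for 1, Gsto1 (6.05%). Gsto1 read 12.06, 11.88 and 12.01 with IL4i1 lost and 12.33, 12.13 and 12.36 with both lost, a difference of 0.29 ± 0.29.

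Gsta4, which conjugates the lipid peroxidation product hydroxynonenal, had the smallest p of the group between IL4i1 knockout and wild type and did not pass. It read 6.25, 6.27 and 6.91 on the wild type arrays, 6.31, 6.86 and 6.57 on those of the LAO1 knockout, 7.21, 7.86 and 6.91 on those of the IL4i1 knockout and 6.28, 6.30 and 6.21 on those of the double knockout. The IL4i1 knockout arrays were highest but met wild type at 6.91. The IL4i1 knockout differed from wild type by 0.85 ± 0.27 (SE, adjusted p = 0.533), and the double knockout differed from the IL4i1 knockout by -1.06 ± 0.27 (0.137). The interaction was -1.17 ± 0.38 (adjusted p = 0.456).

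Of the whole group, 25 differences between the IL4i1 knockout and wild type were below 0 and 25 above, with a median of -0.02 (all probes 0.03). By limma 0 passed (0.0135% of all probes) and 3 had an unadjusted p under 0.05 (7.58% of all probes, 3.25% higher and 4.34% lower; 9.75% of those above the minimum level): Gsta4 above 0, Gstm6 and Gstt3 below. Gstt3 read 6.74, 6.66 and 6.20 on the wild type arrays and 6.56, 5.22 and 5.74 on those of the IL4i1 knockout (-0.69 ± 0.31, adjusted p = 0.642), and its ranges overlapped. All 3 arrays lay above wild type for 3 genes, Cyp2d10, Cyp2d22 and Cyp2d37-ps (5.97% of all probes), and below for 1, Ugt2b34 (5.16%). These counts are near or under the background.

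In the LAO1 knockout the group stood as in wild type on average, with 26 of 50 differences below 0 and a median of -0.02 (all probes 0.01). By limma 0 passed (0.0045% of all probes) and 4 had an unadjusted p under 0.05 (3.02% of all probes, 1.45% higher and 1.57% lower), each with an adjusted p of 1: Gstm6, Cyp2s1, Cyp2d40 and Cyp3a11. The mean of Cyp3a11 over the other 9 arrays was under the minimum level, so it is in the group through its LAO1 knockout values, and its count here supports nothing. Cyp3a11 read 5.26, 5.28 and 5.18 in the LAO1 knockout and 4.92, 3.30 and 5.05 in wild type, and wild type replicate 2 was by far the lowest array (difference 0.82 ± 0.37). Cyp2d40 differed by -0.54 ± 0.25. Apart from Cyp3a11 (4.67% of all probes lay higher without overlap), groups did not overlap for 1 gene, Cyp2d40, which lay lower (3.86%).

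For the interaction 0 passed by limma (0.23% of all probes) and 6 had an unadjusted p under 0.05 (7.12% of all probes, 3.87% higher and 3.26% lower): Cyp2d34, Gsta4, Cyp2d9, Gstt2 and Cyp2d22 below 0 and Gstm6 above. Over probes above the minimum level the share was 9.0%. The median over 50 genes was -0.27, against -0.04 for all probes, and single arrays moved it. It was -0.11 without LAO1 knockout replicate 2, -0.15 without IL4i1 knockout replicate 1 and -0.16 without wild type replicate 1. It was -0.41 without LAO1 knockout replicate 1 and -0.42 without IL4i1 knockout replicate 3. Gstt2 read 8.57, 7.58 and 7.99 on the wild type arrays, 9.0, 8.28 and 8.47 on those of the LAO1 knockout, 8.41, 8.33 and 8.38 on those of the IL4i1 knockout and 8.14, 7.68 and 8.19 on those of the double knockout. Its interaction was -0.91 ± 0.38 (adjusted p = 0.648), and for Gstm6 it was 0.92 ± 0.42 (0.700).

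The largest difference between 2 genotypes in the group, that of Cyp2c55, came with the largest spread. Cyp2c55 read 15.72, 16.82 and 16.19 on the wild type arrays, 13.24, 17.38 and 16.13 on those of the LAO1 knockout, 17.90, 16.61 and 11.33 on those of the IL4i1 knockout and 14.73, 13.11 and 10.24 on those of the double knockout. The double knockout lay below wild type on every array, by -3.55 ± 1.50 (SE, adjusted p = 0.632), but LAO1 knockout replicate 1 and IL4i1 knockout replicate 3 were also low. Cyp2c65 read 10.25, 11.80 and 11.34 on the wild type arrays, 8.44, 13.20 and 10.56 on those of the LAO1 knockout, 12.35, 12.72 and 7.70 on those of the IL4i1 knockout and 11.05, 10.60 and 8.35 on those of the double knockout. Cyp2c66 read 7.18, 8.41 and 8.53, then 6.82, 9.17 and 8.16, then 9.23, 9.10 and 5.83, then 8.25, 7.09 and 6.31 in the same order. These 3 neighbours were lowest on the same array of every genotype. The double knockout differed from wild type by -1.13 ± 1.29 for Cyp2c65 and -0.82 ± 0.83 for Cyp2c66, less than the spread between arrays.

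To describe this spread, each gene's deviations from its genotype means were compared with those of Cyp2c55 over the 12 arrays, for all 19504 other named genes. Cyp2c66 (correlation 0.956) was the 8th closest and Cyp2c65 (0.946) the 10th. The closest was Car1, a carbonic anhydrase of colonocytes (0.991), followed by Mettl7b (0.988), Ces1f (0.979), Pparg, a nuclear receptor of the surface epithelium (0.969), and Aldh1a1 (0.961). These points share arrays and overall signal, and they give no test. Hoxb13 is a homeobox gene of the distal end of the colon. Both Car1 and Hoxb13 were examined after the data had been seen. Car1 read 17.60, 19.27 and 18.90 on the wild type arrays, 15.44, 19.64 and 18.31 on those of the LAO1 knockout, 19.93, 18.94 and 14.08 on those of the IL4i1 knockout and 19.87, 17.79 and 14.92 on those of the double knockout. Hoxb13 read 6.20, 2.71 and 3.82, then 6.53, 3.10 and 5.46, then 5.98, 4.13 and 7.39, then 4.09, 4.28 and 7.06 in the same order. Within each of the 4 genotypes Car1 was lowest, and Hoxb13 highest, on the array where these Cyp2c genes were lowest. The summed signal of all 10 absorptive colonocyte markers, all above the minimum, ran from 19.52 to 20.13 for wild type, 18.72 to 20.35 for the LAO1 knockout, 18.55 to 20.58 for the IL4i1 knockout and 19.13 to 20.31 for the double knockout. Whether the arrays held different stretches of colon was not tested.

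**Figure D3:**
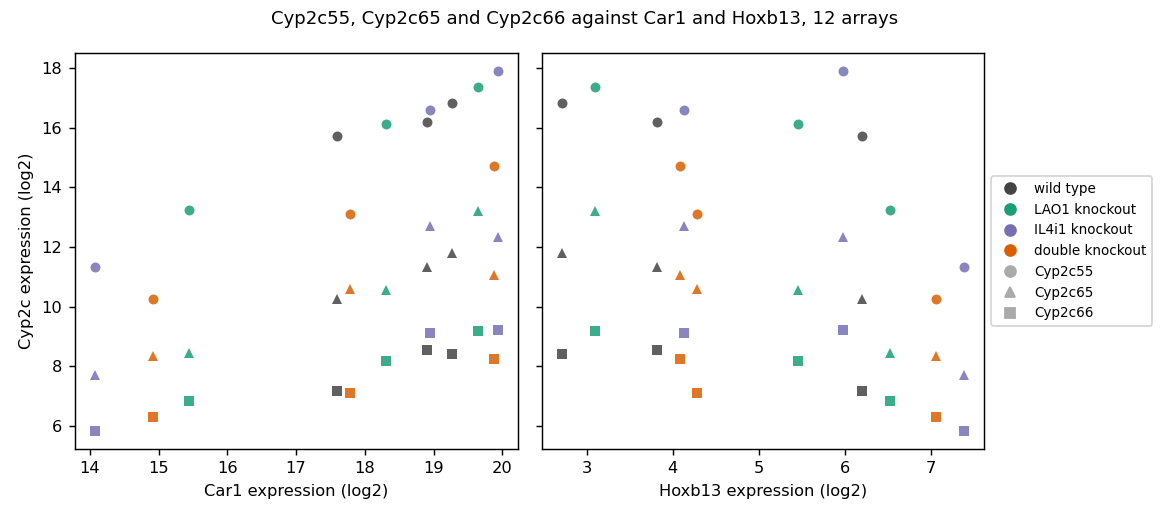
Log2 expression of Cyp2c55 (circles), Cyp2c65 (triangles) and Cyp2c66 (squares), vertical axis, against Car1 and Hoxb13, horizontal axes, on 12 arrays coloured by genotype. All 3 genes are lowest on the arrays of each genotype where Car1 is lowest, and the 3 double knockout circles lie below those of other genotypes at a similar Car1 level.

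Over the 12 arrays Cyp2c55 and Car1 correlated with Pearson's r = 0.88 (permutation p = 0.00045, adjusted over 2 relations 0.0009) and Spearman's rho = 0.818 (0.0021, adjusted 0.0041). Without the 2 arrays farthest from the median of Car1, IL4i1 knockout replicate 3 and double knockout replicate 3, r was 0.719. Cyp2c55 and Hoxb13 gave r = -0.634 (0.029, adjusted 0.029) and rho = -0.657 (0.024, adjusted 0.024), and r = -0.28 without the same 2 arrays, so that relation rests on them. Car1 had been picked as the closest of all genes, so its p is not independent of that choice.

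With the Car1 level as a covariate, an alternative added after the data had been seen, Cyp2c55 differed between double knockout and wild type by -2.48 ± 0.27 (SE, limma, adjusted p = 0.0063), from the LAO1 knockout by -2.62 ± 0.26 (0.0042) and from the IL4i1 knockout by -2.46 ± 0.26 (0.0011). The LAO1 knockout (0.14 ± 0.26) and the IL4i1 knockout (-0.02 ± 0.27) differed little from wild type in that fit. With Hoxb13 as the covariate the double knockout difference from wild type was -2.63 ± 1.07 (adjusted p = 0.596). Car1 was taken as the gene closest to Cyp2c55, so the calls under it are no independent evidence.

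Other members followed the same order of arrays to different degrees, which describes them and tests nothing, since Car1 was picked through Cyp2c55. The lowest array was that of Car1 in all 4 genotypes for 8 genes: Cyp2c55, Cyp2c65, Cyp2c66, Cyp2d26, Cyp4f40, Gsta4, Gstk1 and Ugt2b5. Of the 11873 named genes above the minimum level, members included and Car1 left out, 203 (1.71%) had that order. Cyp2c68 and Cyp2d13 were highest on that array in all 4 genotypes, as were 170 of the 11873 (1.43%). Their deviations correlated with those of Cyp2c55 at -0.822 and -0.805, ranks 19411 and 19380 of 19504 genes. Cyp2c68 read 5.56, 4.48 and 4.96 on the wild type arrays, 5.49, 4.22 and 4.70 on those of the LAO1 knockout, 5.70, 4.78 and 6.70 on those of the IL4i1 knockout and 4.21, 4.66 and 5.07 on those of the double knockout. It is dim, and in every genotype it was highest on the array where Cyp2c55, Cyp2c65 and Cyp2c66 were lowest. Cyp2d34 and Cyp2d9 were not among the 8, but their deviations correlated with those of Cyp2c55 at -0.556 each, ranks 18117 and 18113. The correlation was 0.873 for Cyp2s1 (rank 71), 0.753 for Gstk1 and -0.048 for Gstm1.

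The wider pathway was described by 72 genes of its regulators, cofactor enzymes, other conjugating enzymes and transporters, of which 68 were measured. In the double knockout against wild type 0 of 68 passed by limma, and 5 had an unadjusted p under 0.05, all lower (median -0.20). That is 7.35%, against 7.44% of all probes in both directions together, so by that measure the count is at the background. Of all probes 3.81% had such a p and were lower, and of those above the minimum level 5.34%. The smallest p-values were those of Sult1c2, a sulfotransferase (-1.91 ± 0.29, adjusted p = 0.0582), Cbr1, a carbonyl reductase (-0.87 ± 0.25, 0.444), and Abcg2, an efflux pump (-1.21 ± 0.36, 0.469). Sult1c2 read 7.04, 6.44 and 7.25 on the wild type arrays, 6.84, 6.95 and 6.64 on those of the LAO1 knockout, 8.32, 7.39 and 7.64 on those of the IL4i1 knockout and 5.44, 4.84 and 4.71 on those of the double knockout. Every double knockout array lay below the other 9.

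Sult1c2 was the 1 gene of the 68 that passed against the LAO1 knockout (-1.81 ± 0.29, adjusted p = 0.0218), where 6 (8.82%) had an unadjusted p under 0.05, against 7.15% of all probes. It was also the 1 that passed against the IL4i1 knockout (-2.79 ± 0.29, 0.0007), where 17 (25%) had one, 13 of them lower, against 9.83% of all probes and 13.0% of those above the minimum level. It fell in both, and it also passed in the F test (0.0042) and for the interaction (-2.69 ± 0.41, 0.0114), where 7 (10.3%, all probes 7.48%) and 6 genes (8.82%, all probes 7.12%) had an unadjusted p under 0.05. Those counts are near the background. Next against the LAO1 knockout were Cbr1 (-0.68 ± 0.25, 0.595) and Nat1, an acetyltransferase (0.79 ± 0.30, 0.610). Nat1 is a dim probe that read 2.79 to 4.32, under the minimum level on every array, so each Nat1 difference given here is uncertain. Next against the IL4i1 knockout were Fmo2, a flavin monooxygenase (-0.71 ± 0.21, 0.237), and Sult1d1 (-1.39 ± 0.42, 0.242). For the interaction they were Fmo2 (-1.09 ± 0.30, 0.297) and Nat1 (1.07 ± 0.42, 0.607), and in the F test Fmo2 (0.245) and Cbr1 (0.527).

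In the IL4i1 knockout against wild type 0 of 68 passed by limma and 5 had an unadjusted p under 0.05 (7.35%, against 7.58% of all probes), of which 3 were higher, led by Fmo2 (1.05 ± 0.21, adjusted p = 0.269), Sult1c2 (0.87 ± 0.29, 0.538) and Fmo1 (0.69 ± 0.24, 0.574). Fmo2 read 9.23, 9.36 and 9.54 on the wild type arrays and 10.41, 10.15 and 10.72 on those of the IL4i1 knockout. In the LAO1 knockout 0 passed and 0 had an unadjusted p under 0.05; the smallest were those of Fmo2 (0.37 ± 0.21), Gclm, a subunit of the glutathione synthesis enzyme (0.27 ± 0.18), and Nat1 (-0.43 ± 0.30), each with an adjusted p of 1.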

How the data were processed

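The authors deposited log2 expression values for 22206 probes on 12 arrays; Transcriptome Analysis Console stands in the submitters' processing notes, and the summarisation, normalization and genome build are not given in the sources used here. Gene symbols were those of the platform annotation, which may be outdated: 19572 probes had 1 gene symbol, 0 several and 2634 none. Values were used as deposited. No member had more than 1 probe.

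The test was limma's (version 3.58.1, R 4.3.3; lmFit, then eBayes), in 1 fit over 12 arrays with a mean per genotype (8 residual degrees of freedom), checked first on simulated data. P-values are two-sided, with Benjamini-Hochberg adjustment across the 22206 probes, with a threshold of 0.05. Named members had the smallest unadjusted p under 0.05 (up to 8 per direction and comparison), the 3 highest means of a family, or a mean next to the minimum; of the 72 pathway genes the 3 smallest p per comparison were named. Genes outside this rule (Cyp2c65, Cyp2c66, other members listed by array order or non-overlap, Car1, Hoxb13 and the genes most like Cyp2c55) were named after their values were seen. The members and lists were chosen with earlier results of these data known. A summed marker signal is the log2 of summed linear values. Promoters were matched by symbol in RefSeq tables (GRCm38.p6) and aligned with Biopython 1.88. Correlation p-values used 100000 resamples. Alternatives were quantile normalization, a filter on dim probes, other eBayes options, a replicate block, only the arrays compared, other minimum levels, each array left out, and covariates.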

Additional observations from a re-analysis of the deposited data

Results flagged for a closer look

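Sult1c2 was the only member of either list whose 2 single effects differed by a test of the difference itself. Loss of IL4i1 went with a difference of 0.87 ± 0.29 (SE) where LAO1 was intact and of -1.81 ± 0.29 where LAO1 was lacking. The interaction was -2.69 ± 0.41 (limma, adjusted p = 0.0114). The 3 double knockout arrays read 4.71 to 5.44 and the other 9 read 6.44 to 8.32. Groups of 3 arrays were too small for the outlier check.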

How the results depend on the processing

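Over 131 alternatives of the 7 counts of members past the threshold, 121 gave 0 members and 10 gave a call. With probes under the 40th percentile left out, 1 member (Cyp2d34) passed between double and IL4i1 knockout. With each array left out in turn, the count ran from 0 to 1 in that comparison and for the interaction. With the Car1 level as a covariate, the count was 1 in the double knockout against wild type and against the LAO1 knockout. It was 2 against the IL4i1 knockout (Cyp2c55 and Cyp2d34), 1 for the interaction and 1 in the F test. With a replicate block, 1 member passed between double and IL4i1 knockout (Cyp2d34, adjusted p = 0.0424) and 0 in the other tests. Whether the replicate numbers pair the arrays was not settled. Deviations of same-numbered arrays correlated at -0.142 to 0.218, over 0.1 in 7 of 18 pairs (9 of 36 with different numbers). Of the arrays, 5 of 12 correlated best with their own number. On principal component 1, replicate 1 arrays lay at -31.09 to -0.52, replicate 2 arrays at -40.03 to 68.94 and replicate 3 arrays at 3.15 to 20.75. Without a minimum level, the median over all 106 genes was -0.06 in the double knockout against wild type and -0.105 against the LAO1 knockout (-0.35 and -0.33 over the 50). With each array left out, the median against wild type ran from -0.38 to -0.22 and that of the interaction from -0.42 to -0.11. The cause was not tested. Of 716 alternatives for single genes, 709 kept direction and side of the threshold, 7 passed it and 0 reversed. Quantile normalization moved the median of all probes by at most 0.0146 and left 36 of 50 differences from wild type below 0 in the double knockout. Other probes of a gene could not be tried, since no member had any. The number of arrays and the brightness of a probe limit the precision.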
